A study of Mus musculus with 9 samples.

Results

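The major histocompatibility complex (MHC) genes of mouse tail skin were examined in acute surgical lymphedema, through the 10 genes B2m, H2-D1, H2-K1, Tap1 and Tapbp of class I and H2-Aa, H2-Ab1, H2-Eb1, H2-DMa and Cd74 of class II. Members were chosen by name: every feature (a spotted cDNA clone) that the array's annotation gives to one of these symbols was taken. Of the 42624 features on the array, 16 belonged to 1 member alone, and they covered 8 of the 10 genes. Another 3 features were shared between genes, 2 by H2-K1, H2-D1 and LOC547349 and 1 by Tap1 and Psmb9. Tap1 was thus read only together with Psmb9, and no feature carried the name Tapbp.

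All mice were female, hairless SKH-1 animals, immunocompetent and 3 weeks old. In lymphedema mice the skin of the tail was cut all round, 16 mm from the base, and the lymphatic trunks seen with dye were cauterised. Surgical sham mice had the skin cut and the dye, with the trunks left in place, and normal mice had no surgery. On day 14 skin of the distal tail was taken, and RNA of 9 mice per state was combined into 3 pools of 3 mice. Each pool was hybridised once against RNA of whole mouse embryos late in gestation, the common reference, so that 9 arrays gave 3 values per state.

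MHC class I molecules stand on nearly all nucleated cells and show peptides from inside the cell to CD8 T cells. Their heavy chain (H2-K1 and H2-D1 in the mouse) pairs with the small light chain beta-2 microglobulin, encoded by B2m. Peptides are cut by the proteasome, carried into the endoplasmic reticulum by the transporter TAP and loaded with the help of tapasin, the product of Tapbp. MHC class II molecules are made mainly by dendritic cells, macrophages and B cells, and in skin also by Langerhans cells. They consist of an alpha and a beta chain, H2-Aa with H2-Ab1 in I-A and H2-Ea with H2-Eb1 in I-E. The invariant chain, Cd74, guides them to endosomes, where H2-DM, of which H2-DMa encodes the alpha chain, exchanges a fragment of it for antigen peptides. Interferon gamma is a known inducer of both classes.

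The proximal promoters of several of these genes share short elements, which are shown here for 5 of the members whose RNA is described below. These 5 were picked by name, and each holds an inverted CCAAT box. The sequences are those of RefSeq for build GRCm38.p6, 5′ to 3′ on the strand of the gene, 110 bases each, and belong to the reference strain, not to SKH-1. Capitals mark 3 motifs: TGACG, the first letters of a cyclic AMP response element, the inverted CCAAT box (ATTGG), and, in B2m, GAAA followed after any 2 bases by GAAA again, a form of the element that interferon regulatory factors bind.
B2m, chr2:122147544-122147653, plus strand: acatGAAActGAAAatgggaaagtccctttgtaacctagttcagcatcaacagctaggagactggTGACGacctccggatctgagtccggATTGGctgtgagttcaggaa
H2-D1, chr17:35262928-35263037, plus strand: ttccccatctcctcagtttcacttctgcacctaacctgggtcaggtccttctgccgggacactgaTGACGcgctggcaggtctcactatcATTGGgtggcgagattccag
H2-K1, chr17:34000344-34000453, minus strand: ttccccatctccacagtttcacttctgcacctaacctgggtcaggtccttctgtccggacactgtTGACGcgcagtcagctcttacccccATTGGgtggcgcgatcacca
H2-Aa, chr17:34287852-34287961, minus strand: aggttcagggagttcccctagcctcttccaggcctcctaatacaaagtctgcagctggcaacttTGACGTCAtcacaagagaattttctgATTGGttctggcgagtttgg
H2-Eb1, chr17:34305718-34305827, plus strand: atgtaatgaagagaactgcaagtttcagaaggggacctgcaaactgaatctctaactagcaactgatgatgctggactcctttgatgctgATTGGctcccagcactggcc

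In B2m, H2-D1 and H2-K1 the inverted CCAAT box began 25 bases after TGACG, and in H2-Aa 26 bases after it. In H2-Aa the TGACG letters of both strands overlap and make the palindrome TGACGTCA. H2-Eb1 had the inverted CCAAT box and no TGACG in the 300 bases searched. The stretches of H2-K1 and H2-D1 were identical at 94 of 110 positions (85.5%).

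H2-Ab1 had no promoter in the RefSeq table, and Cd74, on chromosome 18, was left out of the search. Promoters of 8 members were searched, each from 250 bases before the annotated start to 50 after it. CCAAT was found on either strand in 8 of these genes (in H2-DMa only at its second annotated start), against 37.4% of all 32851 promoters. TGACG was found on either strand in 5 of them, against 20.8%, and the GAAA repeat in B2m alone, against 3.44%. Only exact letters were counted, so other forms of the interferon element would not be found. The ordered pair, TGACG followed by the inverted CCAAT box within 30 bases on the gene's strand, was found in 4 members, against 0.399% of all promoters. The pair was chosen after the sequences had been seen. In all these counts a member was counted once if any of its annotated starts had the motif, while the shares over all are of single promoters. H2-K1 and H2-DMa had more than 1 start. A match of letters describes the sequence and not the binding of a factor.

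**Figure D1:**
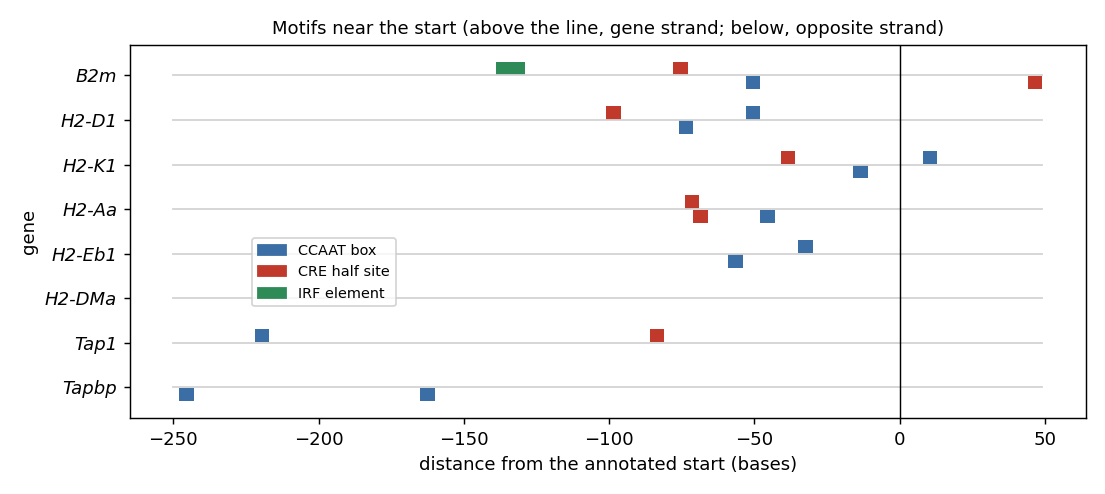
Position of the 3 motifs in the promoters of 8 members, in bases from the annotated start (position 0), with the gene's strand above each line and the opposite strand below it. In B2m, H2-D1, H2-K1 and H2-Aa a TGACG (red) was followed by an inverted CCAAT box (blue), 25 or 26 bases further on.

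Ratios are given as tail skin over the embryo reference, on a log2 scale, after each array was centred on its median. By the labels Cy5 marked the tail skin and Cy3 the embryo RNA, whereas the methods give the opposite dyes. In the deposited values, array medians ran from 2.28 to 2.74 for 29 genes typical of embryos and from −2.73 to −1.84 for 10 genes typical of adult skin, so the deposited ratio was read as embryo over skin and its sign was turned, against the dyes of the labels. The log base is not given in the sources used here and was taken as 2. Of the whole table, 8644 genes (clones of a gene averaged) had a value on all 9 arrays, the 8 members with features of their own among them. Values were missing for 1.34% to 12.6% of features on an array. By which features lacked a value the arrays were divided into 2 sets, the normal arrays with lymphedema array 1, and the sham arrays with lymphedema arrays 2 and 3. Only the 126 divisions of 4 arrays against 5 were searched, and the one with the highest count was taken. In it 186 features had values on all arrays of the first set and none of the second, and 1 feature the reverse. The next highest count was 45. Between states, a ratio in bulk skin cannot separate more cells of a type from more RNA per cell.

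The members as a group stood highest in lymphedema and lowest in normal skin. Of the 8 genes tested with limma over all 8644 genes, 5 were higher in lymphedema than in normal skin (B2m, H2-D1, H2-K1, H2-Aa and H2-DMa) and 0 were lower, at an adjusted p of 0.05. Over all genes, 2.83% were called higher and 0.602% lower. The differences of the 8 members were all above 0, as were those of 61.9% of all genes, with a median of 1.09 against 0.103 over all genes. In 7 of the 8, all but H2-Ab1, the lymphedema arrays lay above all normal arrays, against 23.6% of all genes. The mean fell in the order lymphedema, sham, normal for 7 of 8 members (87.5%), against 3032 of the 8644 genes (35.1%), and H2-Ab1, highest in sham, was the exception. The count of 5 fell to 1 without lymphedema array 1, lymphedema array 2, normal array 1 or normal array 2, fits in which 24, 11, 14 and 13 of all 8644 genes passed, against 297 with all arrays. It was 2 without lymphedema array 3 (73 genes), 3 without normal array 3 (68 genes), 3 without centring (210 genes) and 3 after quantile normalization (184 genes), and B2m passed in each of these fits. It was 7 by SAM and 7 in a fit of the arrays of these states alone, in which 1734 and 842 genes passed. H2-Eb1 and Cd74 were added in both. The methods name SAM, but here it was coded anew and run on averaged genes without their filter on reference signal. Its count is therefore not that of the study.

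**Figure D2:**
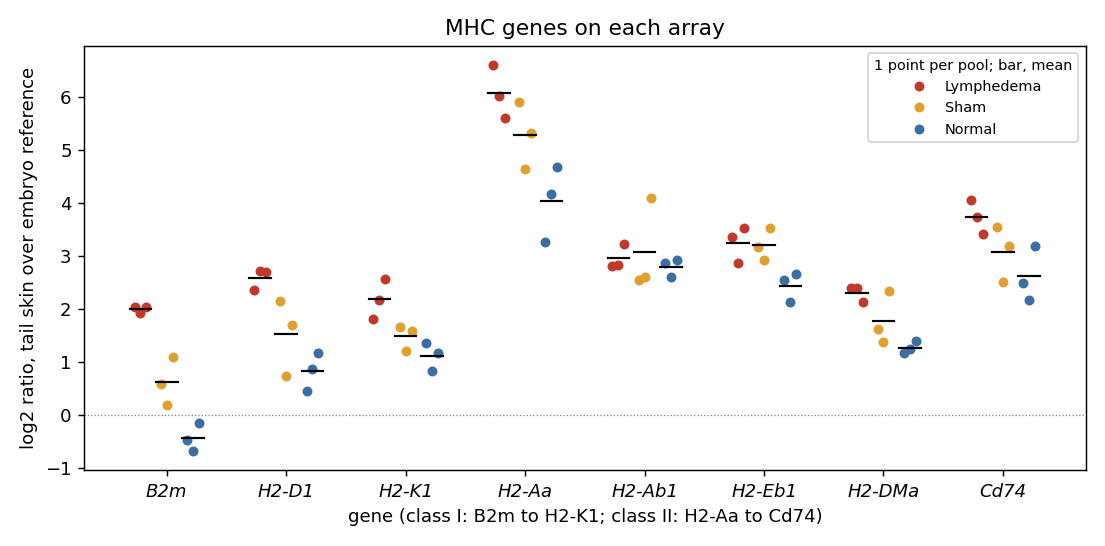
Log2 ratio of tail skin over embryo reference for 8 MHC members, on each of the 9 arrays (points, 3 pools per state) with the mean of each state (line), lymphedema left of sham and sham left of normal. B2m showed no overlap between states, and H2-Ab1 overlapped in all 3.

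B2m, the light chain of every class I molecule (chr2:122147687-122153082), gave the largest difference of the members. Its log2 ratios were 2.05, 1.93 and 2.04 in lymphedema, 0.598, 0.187 and 1.10 in sham and −0.462, −0.672 and −0.145 in normal skin. The 3 states did not overlap. The means were 2.01 ± 0.0661 in lymphedema, 0.628 ± 0.457 in sham and −0.426 ± 0.265 in normal skin (SD, n = 3 each). B2m was 5.40-fold higher in lymphedema than in normal skin, a log2 difference of 2.43 (SE 0.234, 95% CI 1.92 to 2.95, limma adjusted p = 0.00139).

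B2m was carried by 5 clones, each of which passed the test alone, with log2 differences between lymphedema and normal skin of 2.48, 1.95, 2.01, 2.58 and 3.14 and limma adjusted p from 0.000397 to 0.00218 over 30702 features. Clones 1 and 2 have the same sequence record, and their means in normal skin were −0.932 and −0.150, so features of 1 record differed in level. All 5 clones gave the same order of means, lymphedema above sham and sham above normal skin.

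The classical heavy chains moved in the same direction by less. H2-D1 (chr17:35263094-35267497) had log2 ratios of 2.36, 2.72 and 2.71 in lymphedema, 2.16, 0.751 and 1.71 in sham and 0.466, 0.882 and 1.17 in normal skin. Lymphedema arrays lay above all others, and sham array 2 lay within the normal range. The gene was 3.38-fold higher in lymphedema than in normal skin, with a log2 difference of 1.76 (SE 0.319, 95% CI 1.06 to 2.46, limma adjusted p = 0.0244).

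H2-K1 (chr17:33996012-34000619) had log2 ratios of 1.82, 2.19 and 2.57 in lymphedema, 1.67, 1.21 and 1.60 in sham and 1.37, 0.832 and 1.17 in normal skin. Lymphedema arrays again lay above all others, while sham and normal arrays overlapped. Between lymphedema and normal skin the difference was 2.09-fold, or 1.07 on the log2 scale (SE 0.233, 95% CI 0.556 to 1.58, limma adjusted p = 0.0367). Each heavy chain had 1 clone of its own, and these genes are close copies, so that RNA of one bound by the clone of the other was not tested. The 2 features shared by H2-K1, H2-D1 and LOC547349 gave log2 differences of 1.60 and 1.33 (limma adjusted p = 0.00657 and 0.0304).

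Of the transport genes, Tap1 (chr17:34187556-34197225) encodes a subunit of the peptide transporter and was read only by the feature shared with Psmb9. It had a value of 0.103 on lymphedema array 1 and none on the other lymphedema arrays, 0.307, 0.333 and 0.907 in sham and 1.16, 0.578 and 1.03 in normal skin. With 1 value in lymphedema, below all sham and normal values, it was not tested. The features of Psmb9 alone, described below, did not all run the same way. Tapbp (chr17:33919478-33929290), which encodes tapasin, was not analysed here.

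Among class II genes, H2-Aa, the alpha chain of I-A (chr17:34282744-34287823), differed most. Its log2 ratios were 6.61, 6.03 and 5.62 in lymphedema, 5.91, 4.64 and 5.32 in sham and 3.28, 4.18 and 4.69 in normal skin. Lymphedema did not overlap normal skin, and sham overlapped both. The gene was 4.09-fold higher in lymphedema than in normal skin, a log2 difference of 2.03 (SE 0.397, 95% CI 1.16 to 2.90, limma adjusted p = 0.0275).

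H2-Ab1 (chr17:34263227-34269418), the beta chain that pairs with H2-Aa, differed far less. Its log2 ratios were 2.83, 2.84 and 3.23 in lymphedema, 2.56, 2.60 and 4.10 in sham and 2.87, 2.62 and 2.92 in normal skin. All states overlapped, and sham array 3 was the highest. The log2 difference between lymphedema and normal skin was 0.16 (SE 0.349, 95% CI −0.603 to 0.926, limma adjusted p = 0.836), with an upper bound below the lower bound of H2-Aa.

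The difference between the I-A chains was then taken within each array, a comparison chosen after their values had been seen. H2-Aa minus H2-Ab1 was 3.78, 3.19 and 2.38 in lymphedema, 3.35, 2.04 and 1.22 in sham and 0.405, 1.57 and 1.77 in normal skin. Every lymphedema array lay above every normal array, with a mean difference of 1.87 (exact permutation test, two-sided, p = 0.1, the smallest that 3 arrays against 3 allow). Each I-A chain was read by 1 clone.

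H2-Eb1 (chr17:34305867-34316674), the beta chain of I-E, was read by 4 clones, 3 of them with a value on all arrays. Averaged over these, the log2 ratios were 3.36, 2.87 and 3.53 in lymphedema, 3.17, 2.93 and 3.54 in sham and 2.55, 2.13 and 2.66 in normal skin. Lymphedema and sham arrays overlapped, and both lay above the normal arrays. The log2 difference between lymphedema and normal skin was 0.81 (SE 0.236, 95% CI 0.289 to 1.32, limma adjusted p = 0.0864) and did not pass the test. With clone 1 alone the difference was 0.50. With clone 3, which lacks a value on normal array 1, included it was 0.43, and 0.64 with that value imputed (limma adjusted p = 0.0888). Clone 3 stood lower than the others, so that in the 0.43 the average of normal array 1 lacked its lowest clone.

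The clones of H2-Eb1 gave different values. Clone 4 had log2 ratios of 3.78, 3.91 and 4.36 in lymphedema, 4.30, 4.24 and 4.24 in sham and 3.13, 2.06 and 2.73 in normal skin, and its difference of 1.38 between lymphedema and normal skin passed the test over features (limma adjusted p = 0.0175). Clones 1 and 2 gave 0.50 and 0.54 (limma adjusted p = 0.494 and 0.251). Clone 3, with no value on normal array 1, averaged 0.213 in lymphedema, 0.252 in sham and 0.10 in normal skin and was not tested. Clone 4 minus clone 1, also chosen after the values had been seen, differed by 0.878 between lymphedema and normal skin (exact permutation test, two-sided, p = 0.2, where 0.1 is the smallest that 3 arrays against 3 allow).

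H2-DMa (chr17:34119693-34139101), the alpha chain of the peptide exchanger, had log2 ratios of 2.41, 2.40 and 2.14 in lymphedema, 1.63, 1.39 and 2.34 in sham and 1.18, 1.24 and 1.40 in normal skin. Lymphedema lay above all normal arrays, and sham array 3 lay within the lymphedema range. The gene was 2.06-fold higher in lymphedema than in normal skin, a log2 difference of 1.04 (SE 0.234, 95% CI 0.529 to 1.56, limma adjusted p = 0.0379). Its clones gave 1.00 and 1.09, of which the second passed the test over features (limma adjusted p = 0.0934 and 0.0464).

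Cd74, the invariant chain (chr18:60803849-60812652), had log2 ratios of 4.05, 3.73 and 3.43 in lymphedema, 3.55, 2.52 and 3.19 in sham and 2.50, 2.18 and 3.19 in normal skin. Lymphedema lay above all normal arrays, with sham across both. The difference between lymphedema and normal skin, 1.12 on the log2 scale (SE 0.310, 95% CI 0.437 to 1.80), did not pass the test (limma adjusted p = 0.0774). Counted by feature, 10 of the 15 tested features of the members were called higher in lymphedema than in normal skin, against 2.3% of all 30702 features. Of these 10 features, 5 were the clones of B2m, and clones of a gene share their arrays and are not replicates.

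**Figure D3:**
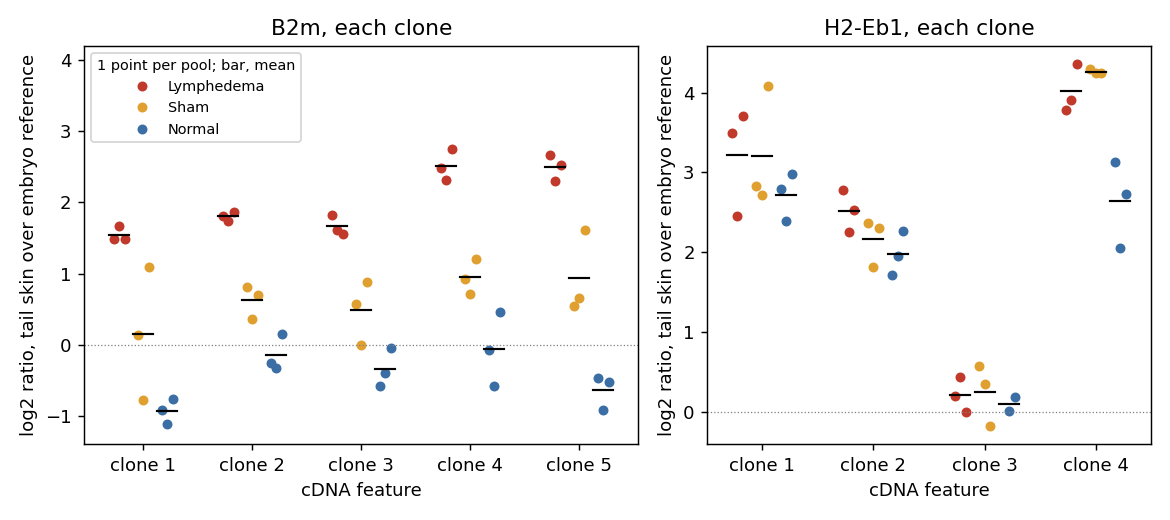
Log2 ratio of tail skin over embryo reference for each clone of B2m (left) and H2-Eb1 (right), on each array (points) with the mean of each state (line), lymphedema left of sham and sham left of normal. In each of the 5 clones of B2m the lymphedema arrays lay above the normal arrays, while of the 4 clones of H2-Eb1 only clone 4 showed lymphedema and sham both clear of normal skin.

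The sham group carried the incision without the ablation of lymphatics, so that lymphedema against sham sets the 2 kinds of surgery side by side. No member passed the test in this comparison, in which limma called 1 gene higher (0.0116%) and 1 lower (0.0116%) of all 8644. These were Irf7, higher by 1.61 (limma adjusted p = 0.0371), an interferon regulatory factor, and Cd160, with a difference of −2.04 (limma adjusted p = 0.0121), a receptor of NK and T cells, both named after their values had been seen. At an unadjusted p of 0.05, 4 members and 643 genes passed. By feature 0 of 15 passed, against 0% called higher and 0.00326% called lower of all features. The median of the members was 0.677, against 0.0578 over all genes, and 7 of 8 lay above 0, against 58.9% of all genes.

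Among the class I genes, B2m had a log2 difference of 1.38 (95% CI 0.864 to 1.89, limma adjusted p = 0.166), H2-D1 1.05 (95% CI 0.353 to 1.75, adjusted p = 0.505 by limma) and H2-K1 0.70 (95% CI 0.192 to 1.21, adjusted p = 0.532 by limma). These 3 were the only members whose lymphedema arrays all lay above all sham arrays, a pattern shown by 6.63% of all genes. Without sham array 3, B2m passed the test with a difference of 1.61 (limma adjusted p = 0.00716), in a fit in which 96 genes passed. Without sham array 2 it differed by 1.16 (limma adjusted p = 0.474) and H2-D1 by 0.66.

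For the class II genes the intervals of the difference from sham were H2-Aa 0.79 (95% CI −0.0772 to 1.66), H2-DMa 0.53 (95% CI 0.0177 to 1.05) and Cd74 0.65 (95% CI −0.0277 to 1.33). H2-Eb1 differed by 0.04 (95% CI −0.476 to 0.559) and H2-Ab1 by −0.12 (95% CI −0.884 to 0.644). Without sham array 2 the differences were 0.47 for H2-Aa, 0.33 for H2-DMa and 0.37 for Cd74, and without sham array 3 0.81 for H2-DMa. None passed the test (limma adjusted p from 0.668 to 0.976), and whether class I and class II differed from each other in this was not tested.

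**Figure D4:**
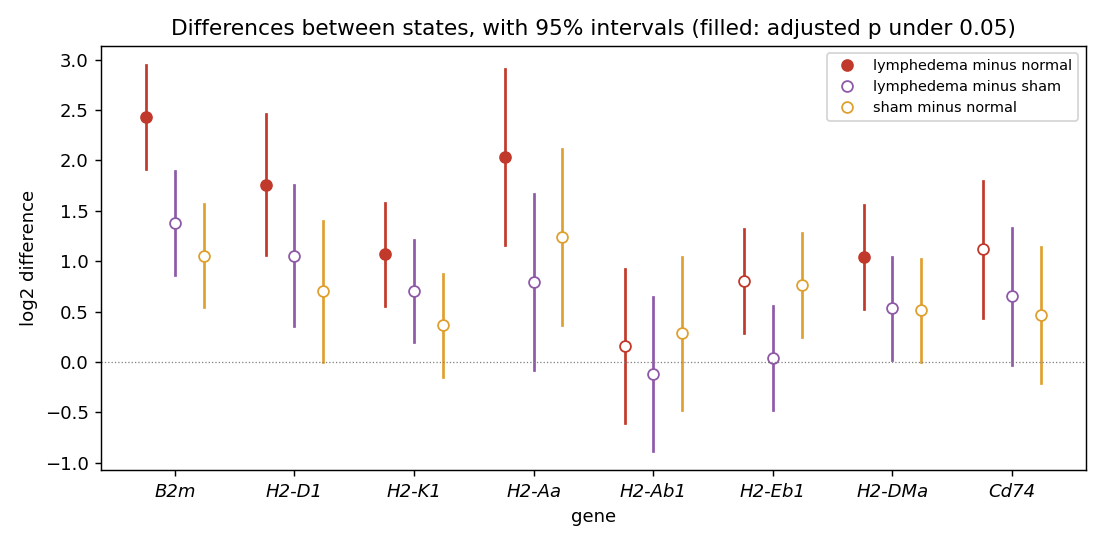
Log2 difference between states for each MHC member (points, limma estimate) with its 95% CI (bars), for lymphedema minus normal, lymphedema minus sham and sham minus normal, filled where the adjusted p was under 0.05. B2m lay furthest from 0 in lymphedema minus normal, at 2.43, and the intervals of H2-Ab1 spanned 0 in all 3 comparisons.

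Sham against normal skin sets the incision with dye beside no surgery at day 14, with sham and normal arrays in different sets. No member passed the test, and limma called 0 of all 8644 genes higher (0%) and 0 lower, with 4 members and 685 genes at an unadjusted p of 0.05. By feature 0 of 15 passed, against 0.0195% of all features called higher. All 8 members were above 0, against 59.6% of all genes, with a median of 0.607 against 0.0581. The largest were H2-Aa at 1.24 (95% CI 0.369 to 2.11, limma adjusted p = 0.439), B2m at 1.05 (95% CI 0.541 to 1.57, limma adjusted p = 0.216) and H2-Eb1 at 0.77 (95% CI 0.248 to 1.28, limma adjusted p = 0.405). Sham arrays of B2m and H2-Eb1 all lay above all normal arrays, which 9.72% of all genes did. Clone 4 of H2-Eb1 was higher by 1.62 in sham than in normal skin (limma adjusted p = 0.0931 over features). Since the lymphedema and sham comparisons share arrays, their values are given side by side and not correlated.

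The division of the arrays by missing values touches these comparisons, since the normal arrays and lymphedema array 1 lie in one set and the sham arrays with lymphedema arrays 2 and 3 in the other. Within the first set, lymphedema array 1 exceeded the mean of the normal arrays by 2.48 for B2m, 2.56 for H2-Aa, 1.52 for H2-D1, 1.43 for Cd74, 1.14 for H2-DMa, 0.908 for H2-Eb1 and 0.694 for H2-K1, and lay above every normal array in these 7, but exceeded it by 0.0213 for H2-Ab1. Within the second, lymphedema arrays 2 and 3 exceeded the mean of sham by 1.35 for B2m, 1.17 for H2-D1 and 0.889 for H2-K1, and both lay above every sham array for these 3 only. With the set as a block, 0 of all 8644 genes passed the test in lymphedema against normal skin, and so no member, in a fit that rests on lymphedema array 1. Sham and normal arrays lie in different sets, so that no value of sham against normal skin comes from within 1 set.

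Genes around the members were taken from lists of the same pathways, none of whose genes passed the test in lymphedema against sham or sham against normal skin. Of 30 other class I heavy chains and class I-like genes 3 were measured, and H2-Q5, a nonclassical heavy chain, was higher in lymphedema than in normal skin by 1.09 (limma adjusted p = 0.0175), with a median of 0.61 over the list. Of 7 genes of peptide loading 4 were measured and 0 passed, with a median of 0.51. Among them Tap2, the partner of Tap1, differed by 0.73 (limma adjusted p = 0.577). All 5 genes of the immunoproteasome and its activator PA28, which interferon gamma induces, were measured, and 2 were higher (median 0.63).

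These were Psmb9 and Psmb10, subunits that replace catalytic subunits of the standard proteasome. Psmb9 had log2 ratios of 1.85, 1.29 and 2.81 in lymphedema, 0.382, 0.288 and 1.35 in sham and 0.463, 0.319 and 0.281 in normal skin, a difference of 1.63 between lymphedema and normal skin (limma adjusted p = 0.0371). Sham array 3 lay above the lowest lymphedema array. Another clone of Psmb9, with values on 5 arrays and not tested, had 0.131 and 0.424 in lymphedema, −0.247 in sham and 0.613 and 0.453 in normal skin. Psmb10 differed by 1.15 (limma adjusted p = 0.0259).

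Psmb8, the third such subunit, was read by clones that disagreed in direction, and its averaged difference was 0.18. One tested clone had log2 ratios of 1.60, 1.72 and 2.35 in lymphedema, 1.26, 0.561 and 1.09 in sham and 0.875, 0.432 and 0.787 in normal skin, with lymphedema above all other arrays. Another tested clone had −0.341, −0.853 and −0.651 in lymphedema, −0.177, −0.076 and −0.999 in sham and 0.827, −0.163 and 0.256 in normal skin, with lymphedema below all normal arrays. A clone with no value on normal array 1, and so not tested, had 2.29, 2.53 and 2.75 in lymphedema, 1.67, 0.356 and 0.918 in sham and 0.41 and 0.525 in normal skin. None of the 3 standard catalytic subunits passed (median 0.40).

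Of 6 other class II chains 2 were measured and 0 passed, H2-DMb2 at 1.11 and H2-DMb1 at 0.88 (limma adjusted p = 0.0918 for both). The H2-DMb1 value is from a clone with log2 ratios between −6.37 and −4.70. Its other clone, which lacks a value and was not tested, lay between 1.12 and 2.03. Of 9 genes of endosomal processing 5 were measured and 2 were higher (median 0.50), Lgmn, an asparaginyl protease that trims antigens and the invariant chain, by 1.52 (limma adjusted p = 0.0367) and the cathepsin Ctsb by 0.86 (limma adjusted p = 0.0274). Of 8 costimulatory genes 2 were measured and 0 passed, with a median of 0.15.

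Of 13 factors known to act on MHC promoters 6 were measured, and 0 passed (median 0.09). Ciita, the class II transactivator, differed by −0.22 between lymphedema and normal skin (limma adjusted p = 0.697), a value from 1 clone. Its other clone, with values on 6 arrays and not tested, had 0.987 and 0.736 in lymphedema. That clone had 1.26, 0.284 and 0.578 in sham and −0.83 on normal array 3, its only normal value. Nfyb and Nfyc, subunits of the factor that binds CCAAT boxes, differed by 0.17 and 0.01, and Creb1, which binds cyclic AMP response elements, by −0.72 (limma adjusted p = 0.215 for Creb1). Irf8, an interferon regulatory factor of myeloid and B cells, differed by 1.33 (limma adjusted p = 0.0646). Irf1, which interferon gamma induces, differed by 0.28 (limma adjusted p = 0.551), a value from 1 clone of 4.

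The other clones of Irf1 lacked values on some arrays and were not tested, and in each the lymphedema values lay above all normal values. One had log2 ratios of 0.568, 0.388 and 1.23 in lymphedema, −0.138 and −0.55 in sham and −0.209, −0.761 and −0.472 in normal skin. Another had 2.06 and 1.85 in lymphedema, 0.589 and 0.875 in sham and 0.005, 0.042 and 0.427 in normal skin. The last had 0.025, 0.591 and 0.502 in lymphedema, −0.608, −1.01 and −0.085 in sham and −0.397 and −0.587 in normal skin.

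In the interferon gamma pathway 5 of 8 genes were measured (median 0.28). Ifngr1, the ligand-binding chain of the receptor, had log2 ratios of 0.515, 1.09 and 0.741 in lymphedema, 0.033, −0.096 and 0.427 in sham and −1.08, −0.612 and −0.472 in normal skin, with no overlap between states, and was higher in lymphedema than in normal skin (limma adjusted p = 0.0138). The cytokine Ifng itself was lower, with log2 ratios of 0.127, 0.041 and −0.414 in lymphedema, 0.537, 0.687 and 0.353 in sham and 0.96, 0.47 and 1.06 in normal skin (limma adjusted p = 0.0445). Of 24 interferon-induced genes outside the MHC 7 were measured, and Ifit1 was higher by 1.36 (limma adjusted p = 0.0175), with a list median of 0.73.

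**Figure D5:**
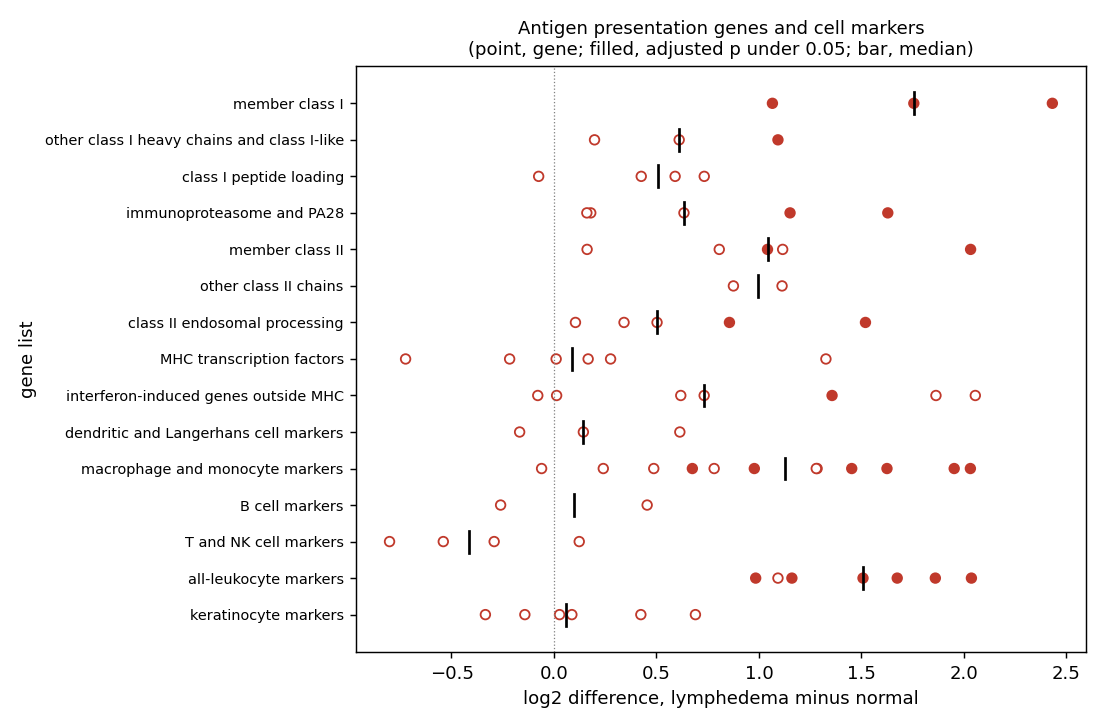
Log2 difference between lymphedema and normal skin for each measured gene (points, filled where the limma adjusted p was under 0.05) of the MHC members, related gene lists and cell type markers, with the median of each list (black bar). The medians stood at 1.76 for the class I and 1.04 for the class II members, beside 1.51 for all-leukocyte and 1.13 for macrophage and monocyte markers.

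Markers of several cell types moved with the members. Of 10 markers of all leukocytes 7 were measured and 6 were higher in lymphedema than in normal skin, among them Coro1a, an actin regulator of leukocytes, by 1.86 (limma adjusted p = 0.0138) and Lcp1, an actin bundling protein, by 2.04 (also Cd53, Rac2 and Arhgdib), with a list median of 1.51. The mean of the list per array ran from 0.56 to 0.85 in lymphedema, −0.83 to 0.52 in sham and −0.82 to −0.78 in normal skin. Of 15 markers of macrophages and monocytes 12 were measured and 6 were higher (median 1.13), among them C1qa, a complement chain that macrophages make, by 2.03 (limma adjusted p = 0.0191) and Lyz2, lysozyme of myeloid cells, by 1.95 (also C1qc, Ccr2 and Fcgr1). The list mean ran from 0.48 to 0.54 in lymphedema, −0.62 to 0.52 in sham and −0.57 to −0.50 in normal skin. C1qa was 1.42, 0.554 and 2.13 in sham, highest on sham array 3. Among the members, sham array 3 was the highest sham array for B2m, H2-Ab1, H2-Eb1 and H2-DMa. For H2-D1, H2-K1, H2-Aa and Cd74 it was sham array 1.

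Of other cells that carry class II molecules, 3 of 12 dendritic and Langerhans cell markers were measured and 0 passed (median 0.14), and 2 of 8 B cell markers were measured and 0 passed (median 0.10). Of 14 T and NK cell markers 4 were measured and 0 passed (median −0.42), and of 10 neutrophil markers 6 were measured and 3, S100a8, S100a9 and Camp, were higher (median 0.80). Of 10 endothelial markers 3 were measured and 2, Kdr and Eng, were higher (median 0.98), and of 10 fibroblast markers 7 were measured and 1, Vim, was higher (median 0.66). Keratinocyte markers, with 6 of 10 measured, had a median of 0.06 and skeletal muscle markers, with 5 of 10 measured, one of 0.36, and 0 of either passed. The part of these cells in the MHC results was not tested.

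The genes whose values followed a member most closely over the 9 arrays are given as a description, since the points share the reference and the 3 states. For B2m they were Nt5e (r = 0.988), Abracl (0.986), S100a8 (0.985), Gnai2 (0.984) and Selenow (0.980). For H2-Aa they were Polr2b (r = 0.977), Asb1 (0.972), Vkorc1 (0.967), Smpdl3a (0.960) and Csta1 (0.959).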

How the data were processed

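Distal tail skin RNA of 3 pools per state was hybridised once per pool, against a common reference, to a cDNA array with 2 colours. Arrays were read by the authors in GenePix, and the signals were corrected for background and dye in Expressionist. The deposited values are log ratios, 1 per feature and array, and were taken as log2 since the sources used here do not give the base. The centring that the authors applied is not given in the sources used here. Deposited medians ran from −0.121 to −0.002, and the sign was turned before each array was centred on its median.

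The annotation names 20678 features by 1 gene, 953 by several and 20993 by none. Linear models with group as the only term were fitted with limma 3.58.1 (lmFit, eBayes) in R 4.3.3 on the 9 arrays, over 8644 genes or 30702 features with all values, and p-values were adjusted by Benjamini-Hochberg at 0.05, two-sided. Promoters were searched and figures drawn with Python 3.11.15 and matplotlib 3.10.9. The steps were tested on simulated data.

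The members and lists were chosen with earlier results of these data known. Named genes were all members, list genes past the threshold (up to 5 per list), measured MHC transcription factors, and the 5 genes closest to B2m and to H2-Aa. Irf7, Cd160, Tap2, Psmb8, H2-DMb1 and H2-DMb2 were named after their values were seen. Alternatives were other scalings, filters on missing values, imputation, fits of 2 groups and SAM. SAM is named in the methods but was coded anew here, with 20 permutations and without their filter on reference signal. The replicate number or the division of the arrays by missing values was also used as a block. Further alternatives were 1 clone per gene, features, and each array left out in turn. The number of arrays limits the precision.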

Additional observations from a re-analysis of the deposited data

How the results depend on the processing

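Between lymphedema and normal skin 5 members passed the test. The count was 3 without centring, 3 with quantile normalization, 3 with a replicate block and 0 (of all genes also 0) with the division by missing values as a block. It was 7 by SAM, 7 in a fit of 2 groups, 6 after scaling to one median absolute deviation, and ran from 1 to 6 when each array was left out in turn. It was 1 without lymphedema array 1 or 2 and without normal array 1 or 2, 2 without lymphedema array 3, and 3 without normal array 3. Under the replicate block 145 genes passed of all tested, against 297, and deviations of arrays with the same number correlated from −0.244 to 0.279, so the numbers were not taken as pairs. Between all settings the count over all genes ran from 0 to 1734. Between lymphedema and sham the count of members, 0, was 1 (B2m) after scaling to one median absolute deviation and ran from 0 to 1 with an array left out. Between sham and normal skin it was 0 in every setting. Of 456 member values under alternatives, 407 kept their direction and side of the threshold, 33 fell short of it, 8 newly passed it and 8 turned in direction. Only called values can fall short, and all 33 belonged to the 5 members called against normal skin. Leaving out an array of the state not compared cannot change a difference. B2m kept its call against normal skin in 18 of 19 settings (2.31 to 2.63), H2-Aa in 14, H2-D1 in 13, H2-K1 in 9 and H2-DMa in 8. The turned values were, for H2-Ab1 against sham, 0.28 with scaling to one median absolute deviation and 0.39 without sham array 3 (−0.385 to 0.387 with an array left out). For H2-Eb1 against sham they were −0.00928 with the division by missing values as a block and, with an array left out, −0.00928, −0.0984 and −0.102 (without lymphedema array 1, lymphedema array 3 and sham array 2) in a range of −0.102 to 0.232. For sham against normal skin they were −0.195 for H2-K1 with that block and −0.225 for H2-Ab1 without sham array 3 (−0.225 to 0.547 with an array left out). The cause was not tested.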

Other observations

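H2-DMb1, the beta chain partner of H2-DMa, was read by clones at very different levels. The tested clone had log2 ratios of −5.30, −4.70 and −5.05 in lymphedema, −5.76, −6.11 and −5.38 in sham and −6.37, −5.60 and −5.71 in normal skin. A clone with no value on normal array 1 lay between 1.42 and 2.03 in lymphedema.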
